A study of Mus musculus with 9 samples.

Results

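F2 fibroblasts are here cells with RNA of *Cd34*, a marker of synovial sublining fibroblasts, and of at least 2 of *Dkk2*, *Cxcl12* and *Gas6*. They were taken from single-cell RNA sequencing of mouse knees by a rule on unique molecular identifiers (UMIs, each standing for 1 captured RNA molecule). Barcodes with 500 genes and 1000 UMIs or more were kept if mitochondrial RNA made up no more than 10% of their UMIs. They were then gated on at least 1 UMI of *Cd34* and none of *Dpp4*, *Clic5*, *Ptprc* or *Pecam1*. Each gated cell was scored by the number of genes detected in 5 panels of 3 genes, named for F1 (*Anxa8*, *Slurp1*, *Ociad2*), F2, F3 (*Acvr2a*, *Cxcl1*, *Col15a1*), F5 (*C7*, *Fmo2*, *Kitl*) and F6 (*Ccl11*, *Smoc2*, *Hsd11b1*). A cell was called F2 where it held at least 2 of the 3 F2 genes and more of them than of any other panel. This gave 889 F2 cells, which were 39.3% of the 2261 gated cells and 18.6% of the 4788 kept cells, from 5161 barcodes in all. The other 4 panels together took 471 gated cells by the same rule, and 901 gated cells fell to no panel.

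All mice carried the alleles *Gdf5-Cre;Tom;Pdgfrα-H2BGFP* and were 11 to 12 weeks old. Tom+ cells descend from cells in which the *Gdf5* promoter, active in the embryonic joint interzone, had driven Cre, whether or not they still use it. Tom-GFP+ cells lack that history and carry nuclear GFP from the *Pdgfrα* promoter. Knees were naive (steady-state; 2 Tom+ libraries and 1 Tom-GFP+ library) or taken 6 days after joint surface injury, in which the right knee was opened and the cartilage of the trochlear groove scratched through its full thickness (4 Tom+ and 2 Tom-GFP+ libraries). No sham-operated library was among them, so the opening of the joint and the scratch cannot be told apart. Within a group each library came from a different mouse. The Tom-GFP+ libraries came from mice matched to Tom+ libraries, and the labels do not say which.

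The panel genes belong to 3 signalling systems. CXCL12 is the ligand of the receptor CXCR4 and is known for holding haematopoietic and immune cells in stromal niches, while ACKR3 is an atypical receptor that takes it up without signalling through G proteins, and ACKR4 one that takes up CCL chemokines. GAS6 binds the TAM receptors AXL, MERTK and TYRO3, through which phagocytes clear dying cells and dampen inflammation in synovium. DKK2 is a secreted modulator of Wnt signalling that binds the co-receptors LRP5 and LRP6 together with Kremen proteins.

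By the GENCODE annotation these are *Dkk2* (ENSMUSG00000028031, chromosome 3, 132085292 to 132180304, plus strand of GRCm38), *Cxcl12* (ENSMUSG00000061353, chromosome 6, 117168535 to 117181367, plus strand) and *Gas6* (ENSMUSG00000031451, chromosome 8, 13465374 to 13494490, minus strand). As genes of the rule their levels are given as a description. Most members were called on *Cxcl12* and *Gas6*: 480 cells (54.0%) held those 2 without *Dkk2*, 368 (41.4%) held all 3, 22 held *Dkk2* and *Cxcl12*, and 19 held *Dkk2* and *Gas6*. The fibroblast label held in the marker check. UMIs of *Pdgfra*, the receptor that marks most fibroblasts, were found in 85.7% of F2 cells and in 4.11% of the 73 *Ptprc*+ cells, which should lack it, and *Thy1*, a marker of the sublining, in 67.3% against 4.11%, at median depths of 9998 and 8462 UMIs per cell. UMIs of *Prg4*, a lubricin gene of the lining, were in 65.2% of F2 cells and also in 46.6% of *Ptprc*+ cells, so that share is not far from background. *Dkk2* UMIs were in 46.0% against 1.37%, *Cxcl12* in 97.9% against 8.22% and *Gas6* in 97.5% against 42.5%, shares that the rule sets in F2 cells. Other fibroblasts held these RNAs too. In the 507 *Dpp4*+ *Cd34*+ fibroblasts *Pdgfra* was in 86.4%, *Thy1* in 86.0%, *Cxcl12* in 73.6%, *Gas6* in 70.6% and *Dkk2* in 34.3%. In the 471 cells of the other panels the shares were 84.5%, 62.2%, 53.3%, 41.6% and 4.25%, the last 3 limited by the rule. Of the 36 pairs of libraries 10 shared barcodes, 14 barcodes in all, and 0 of these were F2 cells.

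Membership was next read against the threshold. Just inside it were 460 cells with 2 F2 genes and 1 gene of the next panel, among which UMIs summed to 1437 CPM (UMIs of the gene per 1000000 UMIs of the same cells) of *Cxcl12*, 539.9 CPM of *Gas6* and 19.1 CPM of *Dkk2*, and 139 cells with 3 F2 genes and 2 of the next panel, at 1369 CPM, 659 CPM and 299.8 CPM. Just outside it were 697 cells with 2 or 3 F2 genes and as many or more of another panel, at 891 CPM of *Cxcl12*, 372 CPM of *Gas6* and 30.7 CPM of *Dkk2*. The cells just outside held less *Cxcl12* and *Gas6* than either set inside, but both genes were present, and no gap in these genes marked the edge. Another 461 gated cells held 1 F2 gene with 1 or more of another panel, 31 held 1 F2 gene alone, and 183 held none. With all 20 genes of the rule held out, the 15 nearest neighbours of an F2 cell among the gated cells of its library were F2 in 78.5% and 79.8% (Tom+ steady-state), 52.8% (Tom-GFP+ steady-state), 26.6%, 55.4%, 37.2% and 62.3% (Tom+ injured) and 40.3% and 66.2% (Tom-GFP+ injured). In each library this was above the F2 share of its gated cells, by the least in Tom+ injured replicate 3 (31.3%).

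F2 cells numbered 118 and 177 in the Tom+ steady-state libraries, 80 in the naive Tom-GFP+ library, 67, 115, 60 and 112 in the Tom+ injured libraries and 86 and 74 in the Tom-GFP+ injured libraries. Their share of gated cells was 65.9% and 64.8% in the Tom+ steady state, against 16.8%, 38.0%, 31.3% and 48.1% after injury, without overlap. In Tom-GFP+ cells it was 33.6% in the steady state and 29.3% and 49.3% after injury, on either side. With each cell thinned to 5000 UMIs the shares were 57.9% and 62.2%, then 37.0%, then 14.4%, 40.9%, 42.3% and 51.9%, and last 33.1% and 44.5%, in the same order of groups. The shares were not tested between states, since the genes that define F2 themselves differed in level between them. Median depth was 8461 and 7915 UMIs per F2 cell in the Tom+ steady state, 8032.5 in the Tom-GFP+ steady state, 17194, 10571, 12971.5 and 10706.5 in the Tom+ injured libraries and 12500.5 and 13180.5 in the Tom-GFP+ injured libraries. Every injured library was thus deeper per cell than every steady-state library. Libraries held 2866464 to 15033902 UMIs in all and 651879 to 1420290 UMIs in F2 cells.

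**Figure D1:**
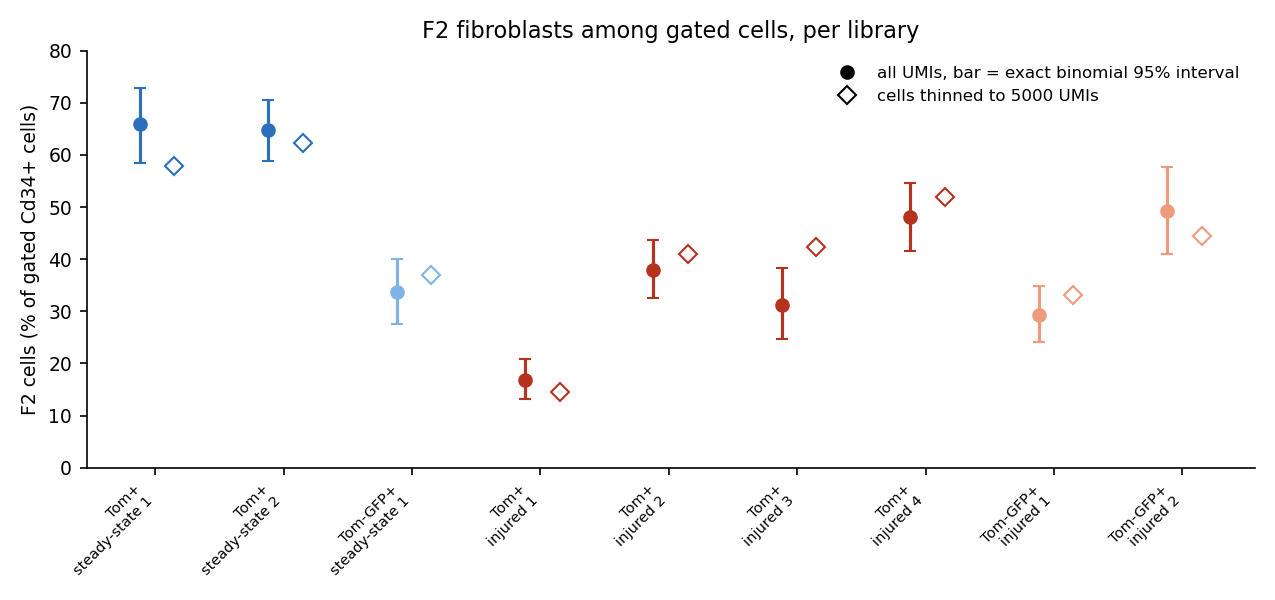
Share of F2 cells among gated *Cd34*+ cells (%, y axis) in each of the 9 libraries (x axis), as filled circles with exact 95% binomial intervals that cover counting error only, and as open diamonds after thinning each cell to 5000 UMIs. The Tom+ steady-state libraries (65.9% and 64.8%) lie above every other library, and Tom+ injured replicate 1 (16.8%) lies below every other.

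The level of each defining gene within F2 cells differed between libraries. *Cxcl12* was at 3228 and 2642 CPM in the Tom+ steady state, 825 CPM in the Tom-GFP+ steady state, 438, 1922, 1701 and 1316 CPM in Tom+ injured and 1076 and 1046 CPM in Tom-GFP+ injured libraries. *Gas6* was at 810.2 and 1060.3, then 1236, then 288, 670.2, 527 and 518, and last 460.5 and 643 CPM. *Dkk2* was at 245 and 271, then 462, then 56.4, 83.4, 52.1 and 179, and last 68.5 and 147 CPM. In Tom+ cells all 3 genes were lower in each injured library than in each steady-state library, with *Dkk2* and *Gas6* also lower in Tom-GFP+ cells while *Cxcl12* there was higher in both injured libraries. Over all gated Tom-GFP+ cells this rise was not seen: *Cxcl12* was at 838 CPM before and 769 and 946 CPM after injury, on either side (log2 fold change 0.06). *Dkk2* (-2.15) and *Gas6* (-1.22) were lower in those cells too, without a call. *Cd34*, the stromal progenitor antigen of the gate, was at 871 and 1092 CPM in the Tom+ steady state and 298, 451, 474 and 545 CPM after injury. Members were selected on these genes, so the falls were also read in all gated cells, where the panels choose no cell. There, by edgeR's quasi-likelihood test over 12342 genes, *Dkk2* (log2 fold change in Tom+ cells -2.14, adjusted p = 0.0532), *Gas6* (-1.35, adjusted p = 0.0721) and *Cxcl12* (-1.40, adjusted p = 0.133) did not pass. Without Tom+ injured replicate 1, the library with the lowest values of *Cxcl12* and *Gas6*, all 3 passed. By the same test the values were then *Dkk2* -1.83 (adjusted p = 0.0268), *Gas6* -1.08 (adjusted p = 0.0215) and *Cxcl12* -1.06 (adjusted p = 0.0103). *Dkk2* also passed without Tom+ injured replicate 4 or the Tom-GFP+ steady-state library. Replicate 1 is the only injured library in the gene-list format of the steady-state libraries, so without it format and state cannot be told apart.

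Members were counted by markers of other cell types, a step added after the data were seen. Members with UMIs of 3 or more markers of tenocytes, osteoblasts or chondrocytes were 2 of 118 (1.69%) and 9 of 177 (5.08%) in the Tom+ steady state, 11 of 80 (13.8%) in the Tom-GFP+ steady state, 23 of 67 (34.3%), 14 of 115 (12.2%), 8 of 60 (13.3%) and 7 of 112 (6.25%) in Tom+ injured and 11 of 86 (12.8%) and 12 of 74 (16.2%) in Tom-GFP+ injured libraries. The tenocyte list of 8 genes summed to 111 and 1109.6 CPM (Tom+ steady-state), 3229 CPM (Tom-GFP+ steady-state), 669, 429, 569 and 232 CPM (Tom+ injured) and 493 and 905 CPM (Tom-GFP+ injured), with *Thbs4* its most abundant member and none at 0 throughout. Single cells held much of this: 1 cell had 71.1% of the UMIs of *Fmod*, the keratan sulphate proteoglycan fibromodulin, of the Tom-GFP+ cells at steady state, and 76.2% in Tom+ steady-state replicate 2. The osteoblast list of 9 genes summed to 109 and 199.96 CPM, then 1006 CPM, then 34.3, 60.6, 102 and 24.4 CPM and last 35.6 and 31.3 CPM, led by *Ibsp*, with the osteocyte gene *Dmp1* at 0 in all libraries. The chondrocyte list of 10 genes, led by *Sox9*, summed to 21.4 and 53.5 CPM, then 44.5 CPM, then 187, 147, 235 and 136 CPM and last 93.3 and 103 CPM, so it was higher in every injured library.

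The lining fibroblast list of 9 genes, led by *Prg4*, summed to 760.2 and 791 CPM, then 434 CPM, then 1966, 3219.5, 2219 and 829.5 CPM and last 1108 and 898 CPM, and the share of members with 3 or more of its markers went from 10.0% to 19.5% in the steady state to 32.1% to 46.3% after injury. Such shares were read without thinning, and depth per cell was higher in every injured library, so they do not separate level from depth. The *Dpp4*+ universal fibroblast list of 8 genes, led by *Ly6c1*, summed to 4654 and 4596 CPM, then 4858 CPM, then 1281, 2421, 3319 and 3709 CPM and last 3125 and 3113 CPM, lower in every injured than in every steady-state library. Members with 3 or more of its markers made up 61.9% to 77.9%. The 11 immune markers summed to at most 53.3 CPM, the 5 red cell markers to at most 12.2 CPM, the 9 mural cell markers to at most 69.0 CPM, the 8 muscle markers to at most 17.0 CPM and the 7 Schwann cell markers to at most 95.1 CPM. The 10 endothelial markers summed to 64.4 to 141 CPM, led by *Plvap*, with *Flt1*, *Emcn* and *Tie1* at 0 in all libraries. Counts without the members that held 3 or more skeletal markers are given beside the list counts that they moved by 1.5 times or more.

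**Figure D2:**
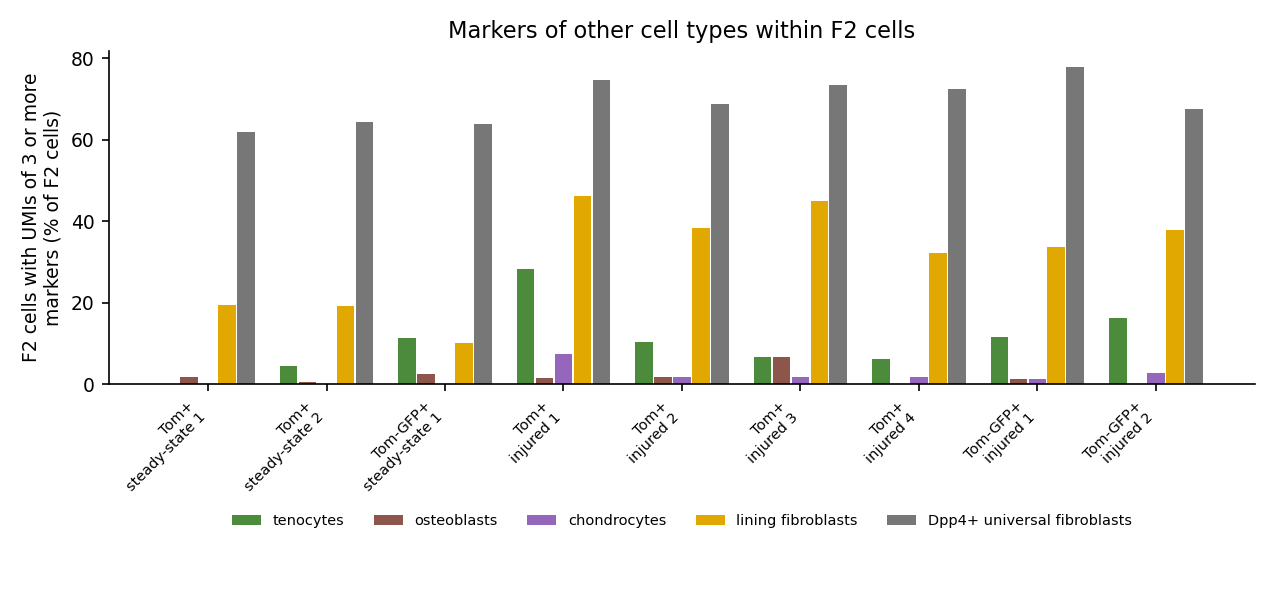
Share of F2 cells (%, y axis) with UMIs of 3 or more markers of tenocytes, osteoblasts, chondrocytes, lining fibroblasts and *Dpp4*+ universal fibroblasts in each of the 9 libraries (x axis); bars are single values with no error. Lining markers are more frequent in every injured library (32.1% to 46.3%) than in the steady state (10.0% to 19.5%), and tenocyte markers are most frequent in Tom+ injured replicate 1 (28.4%). Shares are not thinned to equal UMIs, and depth per cell was higher in every injured library.

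F2 cells were described against the pooled cells of the other 4 panels in the same library. This contrast is the one the rule used, so it carries no test. In Tom+ libraries those cells were of F1 and F3, with 0 F5 cells and at most 1 F6 cell in each. Of 2662 named genes with a mean of 50 CPM or more in either class, 134 were higher in F2 cells in 9 of 9 libraries and 244 were lower. By the median log2 ratio over libraries the leading genes were *Tnmd*, a tendon membrane protein (104 ± 113 CPM in F2 cells against 7.64 ± 7.39 CPM, mean ± SD over 9 libraries, median log2 ratio 3.89), and *Chil1*, a chitinase-like secreted glycoprotein (69.0 ± 66.9 CPM in F2 cells against 5.12 ± 7.07 CPM, 3.03). For *Tnmd* 1 cell held 98.0% of the UMIs in Tom+ injured replicate 3 and 85.8% in Tom-GFP+ injured replicate 2, and for *Chil1* 1 cell held 90.5% in Tom+ steady-state replicate 2. UMIs of *Tnmd* were in 3.33% to 27.5% of members per library and UMIs of *Chil1* in 3.39% to 25.0%.

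Genes found in more of the members followed. The cyclin-dependent kinase inhibitor *Cdkn1c* was at 171 ± 97.2 CPM in F2 cells against 36.1 ± 32.5 CPM (2.60) and was detected in 20.3% to 71.6% of F2 cells per library. The membrane protein gene *Tmem176b* was at 279 ± 66.9 CPM in F2 cells against 86.1 ± 52.1 CPM (2.28) with UMIs in 52.5% to 86.6% of F2 cells. Both were also higher in F2 cells than in *Dpp4*+ *Cd34*+ fibroblasts in 9 of 9 libraries. The opioid precursor *Penk* (2.36), *Myoc* for myocilin (2.39), the glycoprotein gene *Gpnmb* (2.14), the complement genes *C4b* (1.91) and *Cfb* (1.67), the granule proteoglycan *Srgn* (1.74), *Ace* for angiotensin-converting enzyme (1.73) and the transporter *Abca8a* (1.66) completed the 12 highest. *Ace* was higher than in *Dpp4*+ cells in only 2 of 9 libraries. The 8 lowest were the retinoic acid-binding protein gene *Crabp2* (105 ± 104 CPM in F2 cells against 449 ± 272 CPM, -2.69), *Sbsn* (-2.56), the lactate transporter *Slc16a3* (-2.32), the urokinase receptor *Plaur* (-1.66), *Cdh13* for T-cadherin (-1.55), *Cav1* for caveolin (-1.44), *Tppp3* (-1.37) and *Nupr1* (-1.34). F2 cells thus held a larger share of *Cdkn1c* and *Tmem176b* UMIs, and a smaller one of *Crabp2* and *Sbsn*, than the other panels.

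The injury response of Tom+ F2 cells asks what changes within the same subset between naive and injured joints. It is a comparison of cells that meet the rule in each state, and cells that no longer meet it after injury are not in it. UMIs were summed over the F2 cells of each library, so n counts libraries, and 10232 genes were tested with edgeR (quasi-likelihood F test, p-values adjusted by Benjamini-Hochberg, false discovery rate 0.05). Of these, 336 (3.28%) were higher and 609 (5.95%) lower in the 4 injured than in the 2 steady-state libraries, 945 or 9.24% in all, and 2534 (24.8%) had an unadjusted p below 0.05. The libraries of the groups did not overlap in CPM for 336 of the higher and 606 of the lower genes, which they also did not for 35.7% of all genes tested. Pseudogenes made up 228 of the lower genes, out of 432 tested, and none of the higher. Pseudogenes took 3.44% and 2.22% of F2 UMIs in the Tom+ steady state, 1.12% in Tom+ injured replicate 1 and 0.545% to 0.556% in the other 3. The gene list of that library and of all steady-state libraries was deposited in an older format than that of the other 5, so format and state largely run together. With pseudogenes, ribosomal protein and mitochondrial genes left out before the fit, 300 genes were higher and 365 lower. Without the members that held 3 or more skeletal markers, 752 genes passed, 717 of them among the 945 with the same direction. The count fell to 156 without Tom+ steady-state replicate 1 and to 268 without replicate 2, and DESeq2 called 583. It was 265 in cells that held all 3 panel genes, and 1158 without Tom+ injured replicate 1. Without that library format and state cannot be told apart, and the counts given below without it carry the same limit. With gene-list format as a block 1199 genes passed, 583 of them among the 945 with the same direction. Only the Tom+ injured group holds both formats, so that block rests on replicate 1.

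Matrix and secreted proteins were among the genes with the largest rise. *Cthrc1* (ENSMUSG00000054196, chromosome 15, 39076932 to 39087121, plus strand), a secreted protein made by activated fibroblasts, was at 48.0 and 38.7 CPM in the steady state and 3859, 1632, 2020.5 and 1511 CPM after injury. It went from UMIs in 19.5% and 13.6% of F2 cells to 87.0% to 95%, and the groups lay far apart (log2 fold change 5.62, SE 0.62, adjusted p = 0.00101). *Postn* for periostin (ENSMUSG00000027750, chromosome 3, 54361109 to 54391037, plus strand) was at 167 and 261 CPM and then 2528, 1529.9, 1139 and 1815 CPM (log2 fold change 2.95, SE 0.37, adjusted p = 0.00168), with UMIs in 25.4% to 27.1% of cells before and 75.0% to 92.5% after injury. *Nt5dc2*, a nucleotidase-domain gene (ENSMUSG00000071547, chromosome 14, 31131053 to 31139124, plus strand), was at 1.02 and 2.11 CPM and then 197, 190.4, 157 and 114 CPM (log2 fold change 6.46, SE 0.57, adjusted p = 0.000376). All 3 were high in each injured library, and in no injured library did 1 cell hold over 20.8% of their UMIs.

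*Tnn* and *Tnc*, which encode large glycoproteins of remodelling matrix, both rose. *Tnn* for tenascin-W was at 2.04 and 2.11 CPM and then 283, 99.9, 52.1 and 69.9 CPM (log2 fold change 5.78, SE 0.91, adjusted p = 0.00466), and *Tnc* for tenascin-C at 14.3 and 12.7 CPM and then 366, 283, 115 and 133 CPM (log2 fold change 3.98, SE 0.54, adjusted p = 0.00223). Both were highest in Tom+ injured replicate 1. *Wisp1*, a CCN family matricellular gene, was at 1.02 and 4.22 CPM and then 114, 48.0, 32.7 and 30.1 CPM (log2 fold change 4.18, SE 0.75, adjusted p = 0.00751), and *Sparc*, a collagen-binding glycoprotein, at 6373 and 6247 CPM and then 11274, 13265, 14721 and 14173 CPM (log2 fold change 1.00, SE 0.22, adjusted p = 0.0175). *Spp1* for osteopontin was at 5.10 and 9.86 CPM and then 1021, 101, 52.1 and 167 CPM (log2 fold change 5.34, SE 1.29, adjusted p = 0.028), and 1 cell held 31.8% to 49.5% of its UMIs in each injured library. Of 17 matricellular genes tested, 7 rose and 0 fell, with a median log2 fold change of 0.85 against -0.00422 over all genes tested.

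Of 9 fibrillar collagen genes 6 rose and 0 fell (median 1.71). *Col1a1* (ENSMUSG00000001506, chromosome 11, 94936224 to 94953042, plus strand) was at 2076 and 1967 CPM in the steady state and 11286, 9383, 6799 and 9400.3 CPM after injury (log2 fold change 2.11, SE 0.27, adjusted p = 0.00183). *Col3a1* (ENSMUSG00000026043, chromosome 1, 45311538 to 45349706, plus strand) was at 4776 and 3444 CPM and then 13120.5, 12622, 11735 and 15702 CPM (log2 fold change 1.61, SE 0.26, adjusted p = 0.00491). The lowest injured library was well above the highest steady-state library for either gene. *Col1a2* (1.41, SE 0.26), *Col5a1* (1.71, SE 0.31), *Col5a2* (1.52, SE 0.27) and *Col5a3* (1.27, SE 0.28) completed the 6, at adjusted p from 0.00689 to 0.0199, while *Col2a1* of cartilage did not pass (2.13, SE 1.13, adjusted p = 0.275).

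The promoters of the 6 genes that rose together were read for CCAAT (on either strand, ATTGG), the box bound by the general factor NF-Y that is known in collagen promoters. RefSeq promoter sequences (GRCm38.p6) were given for 4 of the 6, and the 250 bases before the start are shown 5′ to 3′ on the strand of the gene, with the match in capitals.
Col1a2 (chr6:4505368-4505617, plus strand): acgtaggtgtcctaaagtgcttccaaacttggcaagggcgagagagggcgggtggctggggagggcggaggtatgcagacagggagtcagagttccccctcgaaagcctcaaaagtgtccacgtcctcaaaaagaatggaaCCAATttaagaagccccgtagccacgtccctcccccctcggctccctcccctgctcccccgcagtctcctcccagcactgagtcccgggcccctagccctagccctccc
Col3a1 (chr1:45311288-45311537, plus strand): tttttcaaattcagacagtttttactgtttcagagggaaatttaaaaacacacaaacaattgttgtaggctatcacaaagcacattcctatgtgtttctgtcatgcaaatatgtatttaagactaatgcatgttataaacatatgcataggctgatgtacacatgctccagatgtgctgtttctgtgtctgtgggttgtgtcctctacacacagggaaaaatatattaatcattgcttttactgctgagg
Col5a1 (chr2:27886175-27886424, plus strand): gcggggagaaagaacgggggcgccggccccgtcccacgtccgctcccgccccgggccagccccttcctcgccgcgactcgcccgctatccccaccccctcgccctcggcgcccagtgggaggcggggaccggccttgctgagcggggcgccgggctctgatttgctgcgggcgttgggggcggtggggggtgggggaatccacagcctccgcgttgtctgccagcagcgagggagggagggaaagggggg
Col5a3 (chr9:20815068-20815317, minus strand): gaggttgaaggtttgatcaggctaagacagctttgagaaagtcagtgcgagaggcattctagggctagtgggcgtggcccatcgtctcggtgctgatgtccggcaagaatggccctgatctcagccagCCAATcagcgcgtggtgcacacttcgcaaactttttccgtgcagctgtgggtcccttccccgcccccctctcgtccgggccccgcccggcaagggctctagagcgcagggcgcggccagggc

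A match stood in 2 of the 4, 1 each in *Col1a2* and *Col5a3*, beside 33.8% of all 32851 promoters of this length (11120). This describes the letters only, and *Col3a1* and *Col5a1* held none in this window.

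Among 11 other collagens 5 rose and 0 fell (median 0.83). *Col12a1*, which decorates fibrils, was at 11.2 and 23.2 CPM and then 491, 218, 107 and 139 CPM (log2 fold change 3.67, SE 0.65, adjusted p = 0.00708), and *Col8a1*, a network-forming collagen, at 0 and 8.45 CPM and then 196, 78.7, 53.3 and 56.1 CPM (log2 fold change 4.22, SE 0.83, adjusted p = 0.0107). Both were highest in Tom+ injured replicate 1. *Col6a3*, *Col16a1* and *Col18a1* rose with log2 fold changes of 1.39, 1.40 and 1.42. Of 16 genes for collagen processing and crosslinking 4 rose and 1 fell (median 0.52). The lysyl hydroxylase *Plod2* (ENSMUSG00000032374, chromosome 9, 92542223 to 92608428, plus strand) was at 54.1 and 57.0 CPM and then 383, 421, 365 and 299.8 CPM (log2 fold change 2.64, SE 0.24, adjusted p = 0.000376), without overlap and with little spread. The lysyl oxidase *Lox* (2.31, SE 0.40, adjusted p = 0.00668), the prolyl hydroxylase *P4ha3* (1.92, SE 0.31, adjusted p = 0.00491) and the procollagen proteinase *Bmp1* (0.92, SE 0.21, adjusted p = 0.0238) were the others that rose. The proteinase enhancer *Pcolce2* fell, from 923 and 961 CPM to 67.0, 208, 194 and 172 CPM (log2 fold change -2.64, SE 0.35, adjusted p = 0.00212), while *Pcolce* did not pass (-0.57, SE 0.22, adjusted p = 0.138).

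The small leucine-rich proteoglycans, which bind collagen fibrils and growth factors, split in direction, with 2 higher and 5 lower of 11 (median -1.18). *Ogn* for osteoglycin was at 1445 and 1824 CPM and then 569, 484, 423 and 601 CPM (log2 fold change -1.73, SE 0.22, adjusted p = 0.00173). *Dcn* for decorin was at 19495 and 23708 CPM and then 4874, 7996, 11156 and 10073 CPM (log2 fold change -1.42, SE 0.29, adjusted p = 0.0141). *Bgn* for biglycan went the other way, from 1928 and 2364 CPM to 6002, 6781, 4963 and 4280.1 CPM (log2 fold change 1.28, SE 0.25, adjusted p = 0.0109). *Prelp* (-1.13, SE 0.23), *Omd* (-2.21, SE 0.37) and *Ecm2* (-1.91, SE 0.30) also fell and *Aspn* for asporin rose (1.19, SE 0.28). The elastic fibre genes gave 5 higher and 3 lower of 17 (median 0.64): the microfibril gene *Mfap4* went from 8.16 and 31.7 CPM to 208, 423, 348 and 344 CPM (log2 fold change 3.91, SE 0.50, adjusted p = 0.00173), *Eln*, *Fbn1*, *Fbn2* and *Mfap2* rose as well, and *Fbln1* (-2.17, SE 0.44), *Efemp1* (-1.56, SE 0.42) and *Ltbp4* (-1.53, SE 0.38) fell. Of 9 basement membrane genes the laminin chain *Lamb1* rose (1.41, SE 0.36, adjusted p = 0.0334) and *Lamb2* fell (-1.96, SE 0.25, adjusted p = 0.00168).

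Among the named matrix genes that fell, the smallest standard error was that of *Timp3* (ENSMUSG00000020044, chromosome 10, 86300372 to 86349506, plus strand), a matrix-bound inhibitor of metalloproteinases. It was at 421 and 508 CPM in the steady state and 55.6, 66.1, 55.7 and 52.0 CPM after injury (log2 fold change -3.10, SE 0.19, adjusted p = 4.78e-05), and the 4 injured libraries lay close together. *Timp1* rose instead, from 192 and 177 CPM to 2428, 767, 1094 and 637 CPM (log2 fold change 2.65, SE 0.57, adjusted p = 0.0169). The list of 18 metalloproteinases and inhibitors gave 5 higher and 3 lower (median 0.45), the others that rose being *Mmp14* (1.52, SE 0.30), *Mmp19* (0.82, SE 0.23), *Mmp23* (1.67, SE 0.28) and *Adam12*. The membrane inhibitor *Reck* (-2.06, SE 0.31) and the aggrecanase *Adamts5* (-1.65, SE 0.28) fell. *Adam12*, a membrane metalloproteinase of activated mesenchymal cells, had 1 UMI in the F2 cells of the steady-state libraries together and 271 after injury, at 117, 40.1, 9.69 and 47.9 CPM (ratio 140, 95% counting interval 24.9 to 5557, adjusted p = 0.0109). Hyaluronan genes gave 4 higher and 0 lower of 10 (median 1.5), namely the synthase *Has1* (2.29, SE 0.52), the receptor *Cd44* (1.90, SE 0.25), *Tnfaip6* (1.85, SE 0.33), which transfers heavy chains onto hyaluronan, and the cell-surface hyaluronidase *Tmem2* (2.41, SE 0.52).

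Contractile genes gave 5 higher and 0 lower of 10 (median 1.89). *Tpm2* for beta-tropomyosin was at 24.5 and 16.2 CPM and then 267, 85.7, 134 and 74.7 CPM (log2 fold change 2.72, SE 0.59, adjusted p = 0.0171), with *Tpm1* (1.32, SE 0.32), *Cnn2* (1.61, SE 0.34) and *Cald1* (1.00, SE 0.28) also higher. *Tagln* for transgelin was at 4.08 and 0 CPM and then 128, 60.6, 52.1 and 18.7 CPM (log2 fold change 5.09, SE 1.31, adjusted p = 0.0352). It was found in 8.93% to 31.3% of cells after injury, with 1 cell holding 60.5% of its UMIs in replicate 3. *Acta2* for smooth muscle actin, the usual myofibroblast marker, was at 6.12 and 15.5 CPM and then 448, 86.5, 102 and 18.7 CPM and did not pass (log2 fold change 3.77, SE 1.29, adjusted p = 0.0975). It was spread unevenly, in 52.2% of F2 cells of Tom+ injured replicate 1 and in 8.70% to 16.7% of those of the others, 1 cell of replicate 3 holding 82.1% of the UMIs there. Without the members that held skeletal markers 3 of 9 contractile genes rose. The 9 mural cell markers summed to at most 69.0 CPM in any library, as given above.

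Other genes among the 12 with the largest rise had unlike roles. *H19*, an imprinted long noncoding RNA, was at 1.02 and 8.45 CPM and then 366, 276, 176 and 167 CPM (log2 fold change 5.45, SE 0.58, adjusted p = 0.000821), and *C1qtnf3*, a secreted protein of the C1q and TNF family, at 25.5 and 4.93 CPM and then 611, 314, 159.9 and 196 CPM (log2 fold change 4.39, SE 0.72, adjusted p = 0.00576). *Hp* for haptoglobin was at 10.2 and 2.82 CPM and then 54.1, 392, 121 and 67.4 CPM (log2 fold change 4.61, SE 1.13, adjusted p = 0.0292), in 17.4% to 25.0% of injured cells. *Acan* for aggrecan, the cartilage proteoglycan, had 2 UMIs in the steady state and 341 after injury, at 128, 66.1, 14.5 and 62.6 CPM (ratio 88.2, 95% counting interval 24.2 to 731, adjusted p = 0.00752). It was in 49.3% of cells of Tom+ injured replicate 1 but in 5% to 17.4% of the others, with 1 cell holding 83.3% of the UMIs in replicate 3. *Acan* lost its call without the members that held skeletal markers, and *Acan*, *Hp*, *Spp1* and *Tagln* each lost it in 4 to 6 settings. Each injured library lay above both steady-state libraries for all 12 genes, as their choice required.

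**Figure D3:**
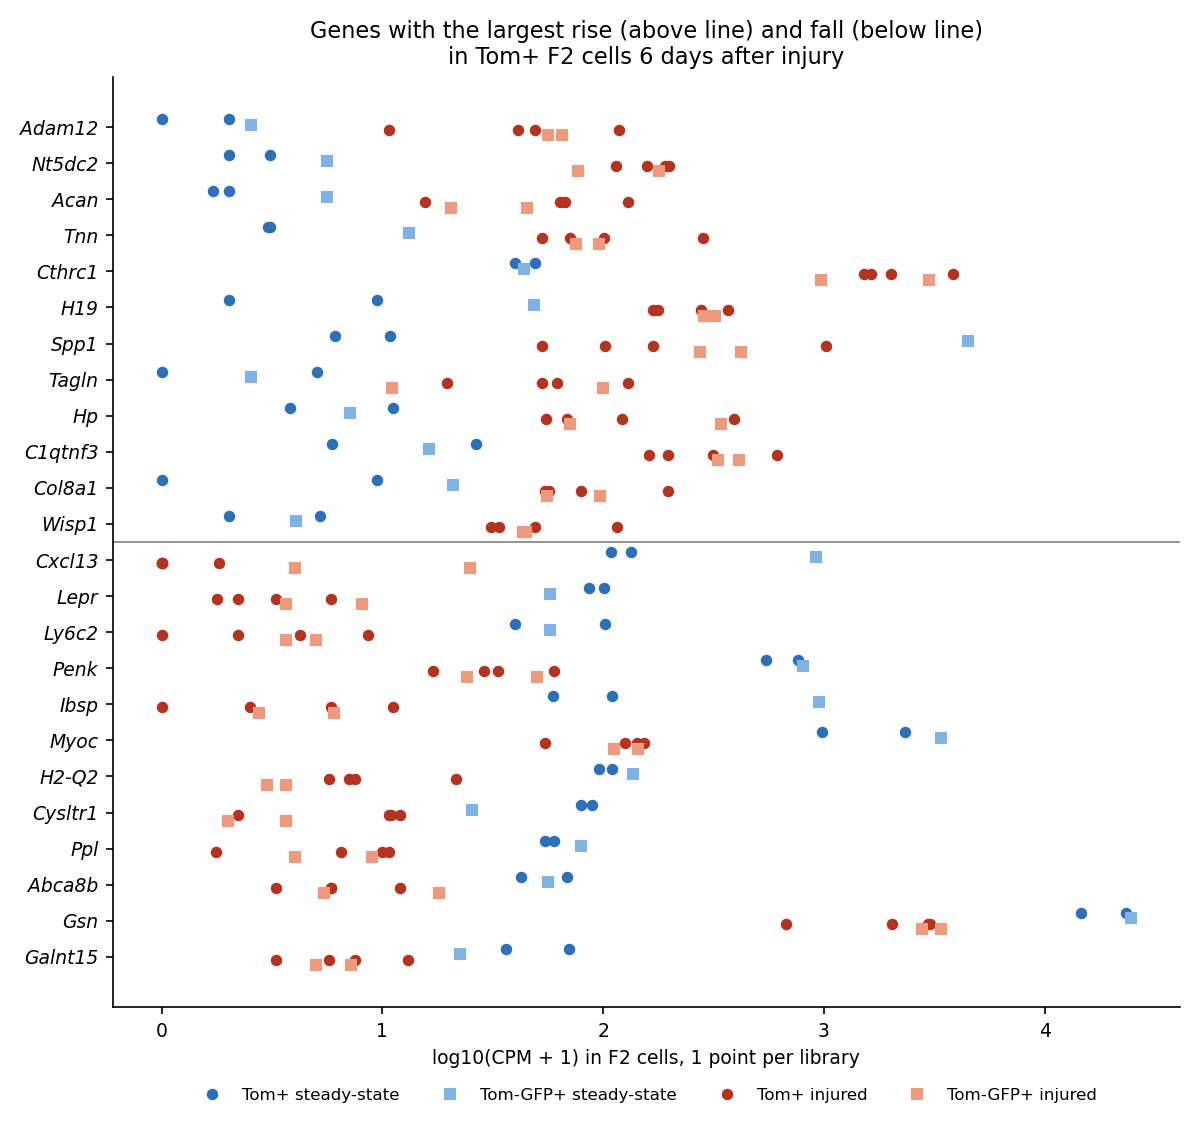
Level of the 12 genes with the largest rise (above the line) and the 12 with the largest fall (below it) in Tom+ F2 cells after injury, as log10(CPM + 1) on the x axis with 1 point per library and genes on the y axis; circles are Tom+, squares Tom-GFP+, blue steady-state and red injured. For every gene the 4 Tom+ injured libraries lie on 1 side of the 2 Tom+ steady-state libraries, which the choice of genes required. *Spp1* in the Tom-GFP+ steady-state library (4502 CPM) comes almost wholly from 1 cell.

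Some genes of stromal niches fell, 5 of 14 tested, of which *Lepr* was among the 12 largest falls. *Lepr* for the leptin receptor (ENSMUSG00000057722, chromosome 4, 101717404 to 101815352, plus strand), a marker of niche stroma in bone marrow, was at 85.7 and 99.98 CPM in the steady state and 2.28, 0.787, 1.21 and 4.87 CPM after injury (log2 fold change -5.31, SE 0.40, adjusted p = 0.000169). Its UMIs were in 25.4% and 29.9% of F2 cells before and in 0.870% to 4.48% after injury. The macrophage growth factor *Csf1* (ENSMUSG00000014599, chromosome 3, 107741048 to 107760469, minus strand) was at 254 and 304 CPM and then 49.5, 96.8, 90.8 and 65.8 CPM (log2 fold change -1.97, SE 0.25, adjusted p = 0.00173). The transcription factors *Ebf1* (-1.17, SE 0.30, adjusted p = 0.0346) and *Ebf2* (-1.63, SE 0.29, adjusted p = 0.00754) and the vessel factor *Angpt1* (-1.33, SE 0.32, adjusted p = 0.028) fell as well. Of the 14 none rose by edgeR, with a median of -0.68, and *Vcam1* did not pass (1.09, SE 0.31, adjusted p = 0.0536). The count was 2 higher and 5 lower without Tom+ injured replicate 1, 1 and 3 without replicate 2 or 3, and 0 and 4 without the members that held skeletal markers. Of 10 adipogenic genes 0 rose and 3 fell (median -0.51), led by *Gpx3* for an extracellular glutathione peroxidase, at 4729 and 5283 CPM and then 578, 981, 563 and 1096 CPM (log2 fold change -2.71, SE 0.40, adjusted p = 0.00328), with *Apoe* (-1.82, SE 0.36) and *Fst* (-2.40, SE 0.28). Those 3 are not lipid-storage genes: *Apoe* carries lipids and *Fst* encodes follistatin, an activin antagonist.

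*Penk* (ENSMUSG00000045573, chromosome 4, 4133531 to 4138819, minus strand), *Myoc* (ENSMUSG00000026697, chromosome 1, 162639155 to 162649693, plus strand) and *Gsn* (ENSMUSG00000026879, chromosome 2, 35256380 to 35307892, plus strand) lost most of a high steady-state level. *Penk* was at 548 and 759.7 CPM and then 15.99, 59.0, 27.9 and 32.5 CPM (log2 fold change -4.34, SE 0.41, adjusted p = 0.000453), and *Myoc* at 984 and 2333 CPM and then 53.3, 142, 151 and 125 CPM (log2 fold change -3.90, SE 0.40, adjusted p = 0.0008). *Gsn*, the actin-severing protein gelsolin, was at 14522 and 23454 CPM and then 674, 3018, 2952 and 2026 CPM (log2 fold change -3.21, SE 0.45, adjusted p = 0.00261) although nearly all F2 cells kept UMIs of it. Tom+ injured replicate 1 was the lowest library for all 3. The leukotriene receptor *Cysltr1* (-3.36, SE 0.37), the cytolinker *Ppl* (-3.30, SE 0.46), the transporter *Abca8b* (-3.27, SE 0.48), the glycosyltransferase *Galnt15* (-3.17, SE 0.43) and the surface antigen *Ly6c2* (-4.46, SE 0.60) fell from means of 52.3 to 83.0 CPM. *H2-Q2* of the Qa family fell too (-3.45, SE 0.39), though reads of such near-identical class I genes can be split or moved between paralogs. *Ibsp* for bone sialoprotein was at 58.2 and 108 CPM and then 1.52, 10.2, 0 and 4.87 CPM (log2 fold change -4.28, SE 0.56, adjusted p = 0.00183). It rested on few members, 6 of 118 and 7 of 177 cells in the steady state, 1 of which held 84.2% and 53.9% of the UMIs.

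Chemokines and cytokines did not move one way, with 3 higher and 1 lower of 22 (median 1.85), 2 and 1 of 20 without the members that held skeletal markers, and 5 and 2 without Tom+ injured replicate 1. *Cxcl13*, the chemokine that draws B cells (ENSMUSG00000023078, chromosome 5, 95956951 to 95961068, plus strand), was at 107 and 132 CPM in the steady state, from 6 of 118 and 12 of 177 cells. After injury 1 UMI was left in 4 libraries, at 0, 0, 0 and 0.812 CPM (ratio 566 in favour of the steady state, 95% counting interval 101 to 22450, adjusted p = 0.000326). *Ccl7*, a monocyte chemokine, was at 160.2 and 86.6 CPM and then 439, 522, 795 and 404 CPM (log2 fold change 2.04, SE 0.35, adjusted p = 0.00618). *Ccl2*, its neighbour in function, was at 32.7 and 27.5 CPM and then 1037, 154, 603 and 157 CPM (log2 fold change 3.93, SE 0.98, adjusted p = 0.0319), with 1 cell holding 68.7% of the UMIs in replicate 3. *Tnfsf11* for the osteoclast factor RANKL had 2 UMIs before and 100 after injury, at 35, 23.6, 9.69 and 13.0 CPM (ratio 25.9, 95% counting interval 6.97 to 216, adjusted p = 0.0153). Of 12 complement genes 0 passed by edgeR, 2 had an unadjusted p below 0.05 and DESeq2 called 1 (median -0.61). *Serping1*, the inhibitor of C1, was at 5145 and 5612 CPM and then 749, 2266, 2974 and 2849 CPM (log2 fold change -1.36, SE 0.41, adjusted p = 0.0628).

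The receptors and partners of the 3 panel genes were read next. For CXCL12, the receptor *Cxcr4* was too low to be tested and *Ackr3* was at 165 and 156 CPM and then 200.3, 311, 488 and 110.5 CPM, without a call (0.69, SE 0.45, adjusted p = 0.38). Of the 4 genes of this list that were tested 1 fell, *Ackr4*, which is not a receptor of CXCL12 and was not called by DESeq2, from 24.5 and 14.1 CPM to 3.81, 8.65, 3.63 and 4.06 CPM (log2 fold change -1.95, SE 0.48, adjusted p = 0.0339). For GAS6, *Axl* fell from 151 and 188 CPM to 74.6, 99.1, 109 and 111 CPM (log2 fold change -0.87, SE 0.23, adjusted p = 0.0372 by edgeR, not called by DESeq2), *Mertk* and *Tyro3* were too low to be tested, and the other TAM ligand *Pros1* did not pass (-0.17, SE 0.31, adjusted p = 0.782), which makes 0 higher and 1 lower of 3. For DKK2, 1 of 18 Wnt receptors and antagonists rose and 0 fell (median 0.03), with 3 higher without Tom+ injured replicate 1. That gene was *Dkk3*, at 63.3 and 59.1 CPM and then 164, 142, 124 and 132 CPM (log2 fold change 1.12, SE 0.23, adjusted p = 0.0132). The antagonist *Sfrp2* (-1.47, SE 0.67, adjusted p = 0.202) and the agonist *Rspo2* (2.30, SE 0.73, adjusted p = 0.0747) did not pass. Of 8 Wnt ligands and targets *Wnt11* fell (40.8 and 28.2 CPM to 12.9, 11.0, 12.1 and 11.4 CPM, log2 fold change -1.60, SE 0.27, adjusted p = 0.0059) and *Wnt16* rose, from no UMI to 93 UMIs at 11.4, 13.4, 18.2 and 37.4 CPM, at least 16-fold higher when the steady-state libraries together are set to 3 UMIs (adjusted p = 0.00779).

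The BMP, FGF and PDGF pathway genes that passed all fell. Of 12 BMP pathway genes 0 rose and 4 fell (median -0.39), the ligands *Bmp2* (-2.43, SE 0.53), *Bmp4* (-2.22, SE 0.41) and *Bmp5* (-2.62, SE 0.67) and the antagonist *Chrdl1* (-1.58, SE 0.34). *Bmp4* was at 39.8 and 48.6 CPM and then 3.05, 8.65, 19.4 and 11.4 CPM (adjusted p = 0.00857). Of 14 FGF and PDGF pathway genes 0 rose and 4 fell (median -0.23), *Fgf2* (-1.85, SE 0.49), *Fgf7* (-1.55, SE 0.23), the feedback inhibitor *Spry1* (-1.49, SE 0.31) and the receptor *Pdgfra* (-1.03, SE 0.27), whose promoter also drives the GFP of the sort. Of 15 TGF-beta pathway genes 3 rose (*Smad7*, *Skil* and *Fstl1*) and 2 fell (*Tgfb2* and *Fst*; median 0.16). Of 10 IGF pathway genes *Igfbp4* (1.56, SE 0.35) and *Igf2r* (1.15, SE 0.24) rose and *Igfbp3* fell (-2.17, SE 0.32; median -0.09), while 3 fell without Tom+ injured replicate 1 and DESeq2 called 5 in all. Among 21 mesenchymal transcription factors 1 rose and 5 fell (median -0.56), or 3 and 5 without Tom+ injured replicate 1. The gene that rose was *Runx1* (ENSMUSG00000022952, chromosome 16, 92601466 to 92826149, minus strand), known from blood and early skeletal progenitors, at 40.8 and 21.1 CPM and then 127, 161, 159.9 and 151 CPM (log2 fold change 2.21, SE 0.30, adjusted p = 0.00223), and *Foxo1* (-1.57, SE 0.28), *Tbx18* (-1.19, SE 0.25), *Prrx1* (-0.85, SE 0.24), *Nfib* (-0.77, SE 0.21) and *Twist1* (-0.91, SE 0.26, adjusted p = 0.04998) fell. Without the members that held skeletal markers the counts were 1 higher and 2 lower for this list, 0 and 3 for the BMP list and 1 and 2 for the FGF and PDGF list.

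By edgeR the stress and growth lists held at most 2 called genes each. Of 16 glycolysis genes 2 rose (median 0.87), *Pfkl* (2.42, SE 0.68, adjusted p = 0.0482) and the transporter *Slc16a3* (2 UMIs before and 126 after injury, ratio 32.6, 95% counting interval 8.84 to 272, adjusted p = 0.0292), and *Ldha* (0.87, SE 0.29, adjusted p = 0.0844) and *Gapdh* (1.00, SE 0.35, adjusted p = 0.0999) did not pass. Without the members that held skeletal markers 0 of the 16 passed. Of 20 cell cycle genes 1 rose by edgeR, with 15 below an unadjusted p of 0.05 and 5 called by DESeq2. It was *Stmn1* for stathmin, from 7.14 and 9.15 CPM to 135, 55.1, 89.6 and 65.8 CPM (log2 fold change 3.29, SE 0.63, adjusted p = 0.00964), and the median of the list was 4.37 as fitted and 3.30 with the 7 genes at 0 in the steady state set to 3 UMIs. Cycling members were few: after thinning, 0 of 92 and 0 of 150 steady-state cells and 4 of 44, 1 of 104, 2 of 69 and 0 of 110 injured cells held 2 or more UMIs of 6 cycle genes. Of 11 heat shock genes *Hspe1* rose (0.76, SE 0.21) and *Hspa1b* fell (-1.23, SE 0.26). *Hspe1* lost its call without the members that held skeletal markers, and 3 heat shock genes were higher without Tom+ injured replicate 1. By edgeR 0 of 19 immediate early genes (4 with an unadjusted p below 0.05 and 0 called by DESeq2), 0 of 20 folding genes of the endoplasmic reticulum (6 and 1) and 0 of 19 interferon and antigen presentation genes (5 and 0) passed.

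The general fibroblast markers split 3 higher and 3 lower of 11, with the collagens up and *Dcn*, *Pdgfra* and *S100a4* (-1.10, SE 0.24) down. Among markers of other cell types, 0 of 8 tenocyte genes passed by edgeR (unadjusted p below 0.05 for 3, DESeq2 1), 1 of 7 chondrocyte genes rose (*Acan*), and of 6 osteoblast genes *Ibsp* and *Alpl* (-2.74, SE 0.66) fell and *Col22a1* rose, from no UMI to 63 UMIs, at least 10.9-fold. Of 7 lining genes *Hbegf* (2.40, SE 0.59) and *Has1* rose and *Foxo1* fell, while *Prg4* was at 584 and 589 CPM and then 1695, 2711, 1558 and 548 CPM and did not pass (1.38, SE 0.47, adjusted p = 0.0957). Of 8 *Dpp4*+ universal fibroblast genes *Efhd1* fell (-2.33, SE 0.39). Of the 2 endothelial genes tested *Ecscr* rose by edgeR (1.49, SE 0.35) and was not called by DESeq2, and 0 of the 1 immune, 3 mural, 1 muscle and 2 Schwann cell genes passed by edgeR. Their counts with an unadjusted p below 0.05 were 0, 0, 0 and 2, and DESeq2 called 0. No red cell gene was high enough to test. Without the members that held skeletal markers the counts of higher and lower genes were 3 and 2 for the general markers, 0 and 0 of 2 for chondrocyte, 0 and 1 of 6 for osteoblast, 1 and 1 of 6 for lining and 0 and 0 of 2 for endothelial genes. Depth per cell, the lining marker share and the summed *Dpp4*+ universal fibroblast list moved with injury in all libraries, and their part in these results was not tested beyond the thinned fit, in which 558 genes passed, 445 of them among the 945 with the same direction and 2 of the 945 with the sign turned.

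The list counts rest on both Tom+ steady-state libraries. Without replicate 1 or replicate 2 of that group, fibrillar collagens gave 1 and 1 higher in place of 6, other collagens 0 and 2 in place of 5, matricellular proteins 3 and 3 in place of 7 and contractile genes 0 and 1 in place of 5. Of the lists that fell, the proteoglycans gave 3 and 2 lower in place of 5, niche factors 2 and 2 in place of 5, and BMP genes 0 and 0 in place of 4. Without any 1 of the other 7 libraries the fibrillar and other collagens stayed at 6 and 5 higher, while the transcription factors went from 5 lower to 2 without Tom+ injured replicate 2 or 3 or either Tom-GFP+ injured library. DESeq2 called 9 chemokines and cytokines in place of 4, and 1 BMP and 2 FGF and PDGF genes in place of 4 each. Among the genes named for the size of their change, *Adam12*, *Tnn*, *Wisp1*, *Acan*, *Hp*, *Spp1* and *Tagln* lost their calls without either Tom+ steady-state library, *Col8a1* without replicate 1 and *C1qtnf3* without replicate 2.

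**Figure D4:**
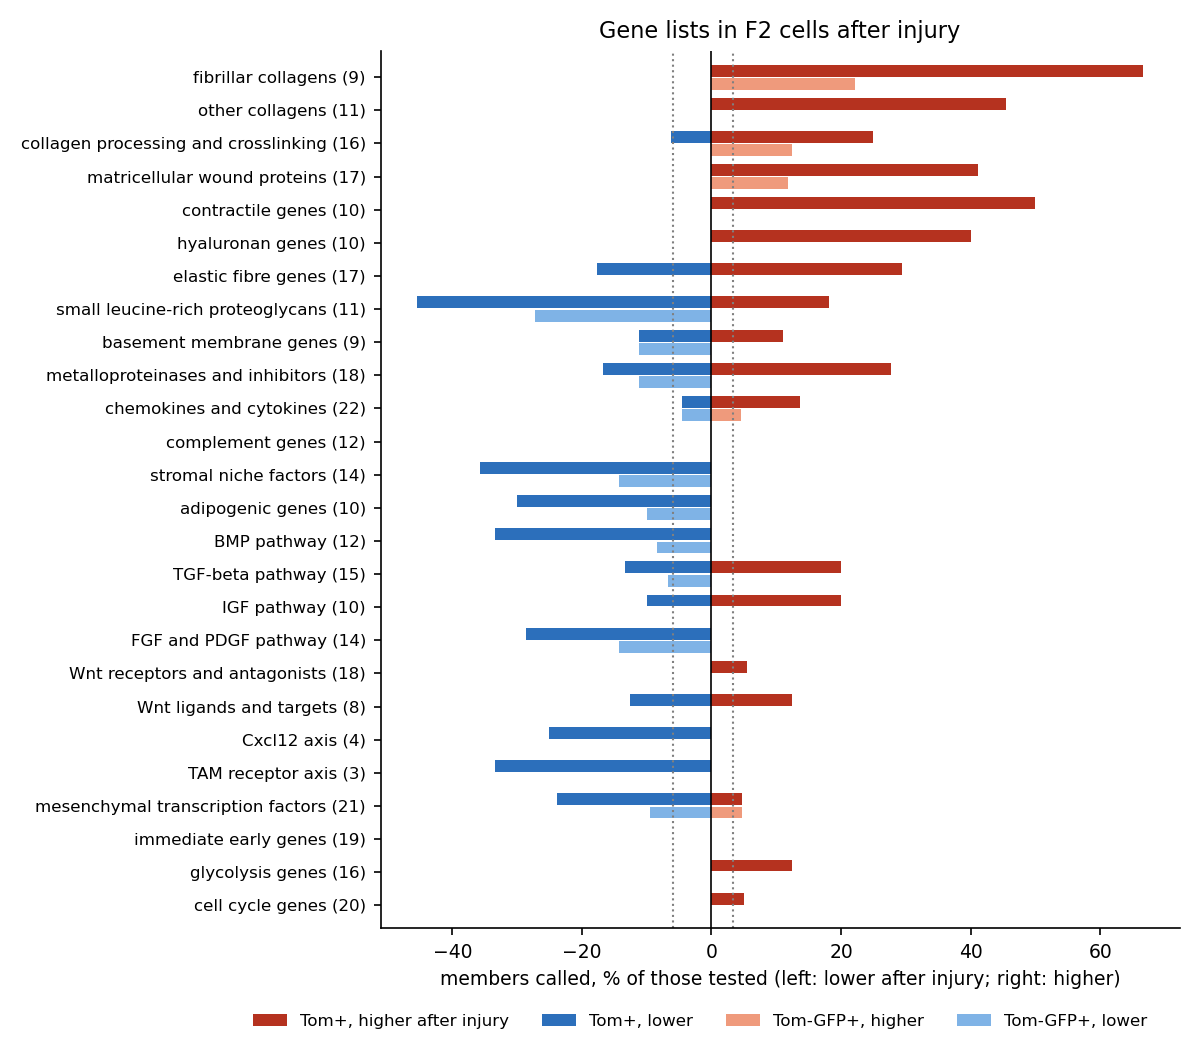
Members called at an adjusted p under 0.05 as a share of those tested (%, x axis; to the left lower and to the right higher after injury) for 26 gene lists (y axis, number tested in parentheses) in Tom+ and Tom-GFP+ F2 cells; dotted lines mark the Tom+ background of all genes, 5.95% lower and 3.28% higher. Fibrillar collagens (6 of 9) and contractile genes (5 of 10) stand farthest to the right, small leucine-rich proteoglycans (5 of 11) and stromal niche factors (5 of 14) farthest to the left.

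The same comparison in Tom-GFP+ F2 cells set 2 injured libraries against 1 steady-state library, which was assumed to vary like the other groups. Of the 10232 genes, 27 (0.264%) were higher and 130 (1.27%) lower, 157 or 1.53% in all, 63 of them pseudogenes. Without Tom-GFP+ injured replicate 1 or 2 the count was 2 or 6, and it was 518 without Tom+ injured replicate 1, 86 and 73 without Tom+ steady-state replicates 1 and 2, and 378 with gene-list format as a block. With that block 75 of the 157 were still called in the same direction. Of the 336 genes higher in Tom+ cells 324 had a log2 fold change above 0 here, and of the 609 lower 593 were below 0. Of the 945 and 157 calls 142 were shared, which is 15% of the Tom+ and 90.4% of the Tom-GFP+ calls. The comparisons share no library, but the Tom-GFP+ libraries came from mice matched to Tom+ ones, all steady-state libraries share a gene-list format and the fit has 1 estimate of the spread, so the responses are not independent of each other.

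Matrix genes were again among those with the largest rise. *Cthrc1* was at 43.0 CPM in the steady state and 2983 and 970.1 CPM after injury (log2 fold change 5.47, SE 0.89, adjusted p = 0.0217), *Postn* at 139.6 CPM and then 1937 and 2425 CPM (log2 fold change 3.92, SE 0.56, adjusted p = 0.014), and *Nt5dc2* at 4.60 CPM and then 178 and 75.6 CPM (3 and 275 UMIs, ratio 28.2, 95% counting interval 9.56 to 138, adjusted p = 0.0217). *Cthrc1* and *Postn* lay far outside the Tom+ steady-state range after injury as well. *Marcksl1*, a cytoskeletal regulator, was at 9.20 CPM and then 132 and 109.9 CPM (log2 fold change 3.66, SE 0.54, adjusted p = 0.014). *Lrrc15*, a surface protein of activated fibroblasts, had no UMI in the steady-state library and 160 after injury, at 100.5 and 47.4 CPM, at least 16.4-fold higher (adjusted p = 0.0307). In Tom+ cells *Lrrc15* was at 14.3 and 4.22 CPM and then 113, 66.9, 58.1 and 68.2 CPM (log2 fold change 3.06, SE 0.51, adjusted p = 0.00603). *Col1a1* (2.16, SE 0.39, adjusted p = 0.0286), *Col3a1* (1.99, SE 0.37, adjusted p = 0.0307), *Plod2* (2.36, SE 0.35, adjusted p = 0.014), *P4ha3* (2.60, SE 0.49), *Ccl7* (2.85, SE 0.52) and *Runx1* (2.11, SE 0.46) rose too. That made 2 of 9 fibrillar collagens, 2 of 16 collagen processing genes and 2 of 17 matricellular genes. Without the members that held skeletal markers these were 4 of 8, 3 of 16 and 4 of 17, and 1 processing gene fell. Without Tom+ injured replicate 1 they were 5, 3 and 5, with 1 lower in each of the last 2 lists, and without Tom-GFP+ injured replicate 1 or 2 they were 0, 0 and at most 1.

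Falls were shared in part. *Timp3* went from 554 CPM to 56.9 and 54.5 CPM (log2 fold change -3.36, SE 0.28, adjusted p = 0.000897), *Penk* from 804 to 23.1 and 49.4 CPM (log2 fold change -4.52, SE 0.59, adjusted p = 0.0114) and *Myoc* from 3404 to 111 and 143 CPM (log2 fold change -4.79, SE 0.59, adjusted p = 0.00707). Each of the 3 was also lower in injured Tom+ cells. *Lepr* (-3.59, SE 0.57), *Ebf2* (-1.94, SE 0.41), *Fst* (-2.68, SE 0.38), *Ogn* (-2.16, SE 0.31), *Prelp* (-1.93, SE 0.33), *Omd* (-3.56, SE 0.54), *Fgf7* (-1.64, SE 0.33), *Lamb2* (-1.81, SE 0.35), *Gsn* (-3.04, SE 0.64) and *Ppl* (-3.82, SE 0.67) also fell, as did *Adamts5*, *Chrdl1*, *Spry1*, *Nfib*, *Meox1*, *Cilp2* and *S100b*. *Cxcl13* was at 919 CPM, in 20 of 80 cells, and then 24.0 and 3.03 CPM in 5 and 2 cells (log2 fold change -6.09, SE 0.62, adjusted p = 0.0021). *Ibsp* was at 951 CPM and then 1.78 and 5.04 CPM (log2 fold change -8.16, SE 0.81, adjusted p = 0.0021). 1 cell held 82.1% of those steady-state UMIs, and without members that held skeletal markers the steady-state value was 184 CPM. *Ifit3*, an interferon-induced gene, was at 73.6 CPM and then 1.78 and 2.02 CPM (log2 fold change -5.25, SE 0.62, adjusted p = 0.00628), from 18 of 80 cells to 2 in each library. *H2-Q1* (-5.23, SE 0.94) and *H2-Q2* (-5.82, SE 0.69) fell with the same doubt on paralogs as above. Of the 10 genes named for the size of their change in Tom-GFP+ cells, all but *Cxcl13* lost their call without Tom-GFP+ injured replicate 1 (*Cxcl13* lost it with gene-list format as a block), and *Lrrc15*, *Postn*, *Marcksl1*, *Ifit3*, *H2-Q1* and *H2-Q2* also without replicate 2. *Lrrc15*, *Nt5dc2* and *Ifit3* lost it with thinning to 5000 UMIs.

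Among the genes named here and called in either lineage, *Spp1*, *Rtp4*, *Eln*, *Tmem2* and *S100a4* had opposite signs in the lineages. *Rtp4* fell in Tom-GFP+ cells (-1.58, SE 0.32, adjusted p = 0.0381) and did not pass in Tom+ cells (0.79, SE 0.28, adjusted p = 0.11). *Spp1* did not pass in Tom-GFP+ cells (-3.75, SE 1.21, adjusted p = 0.161). Its steady-state value of 4502 CPM rested on 1 cell with 2916 of 2935 UMIs, and it was 26.2 CPM without the members that held skeletal markers. The difference of the injury responses was tested as an interaction, and 0 of 10232 genes passed by edgeR, with 286 below an unadjusted p of 0.05 (2.8%), 0 by DESeq2 and a smallest adjusted p of 0.999974. A missed threshold with 1 steady-state Tom-GFP+ library does not show that the lineages respond alike.

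**Figure D5:**
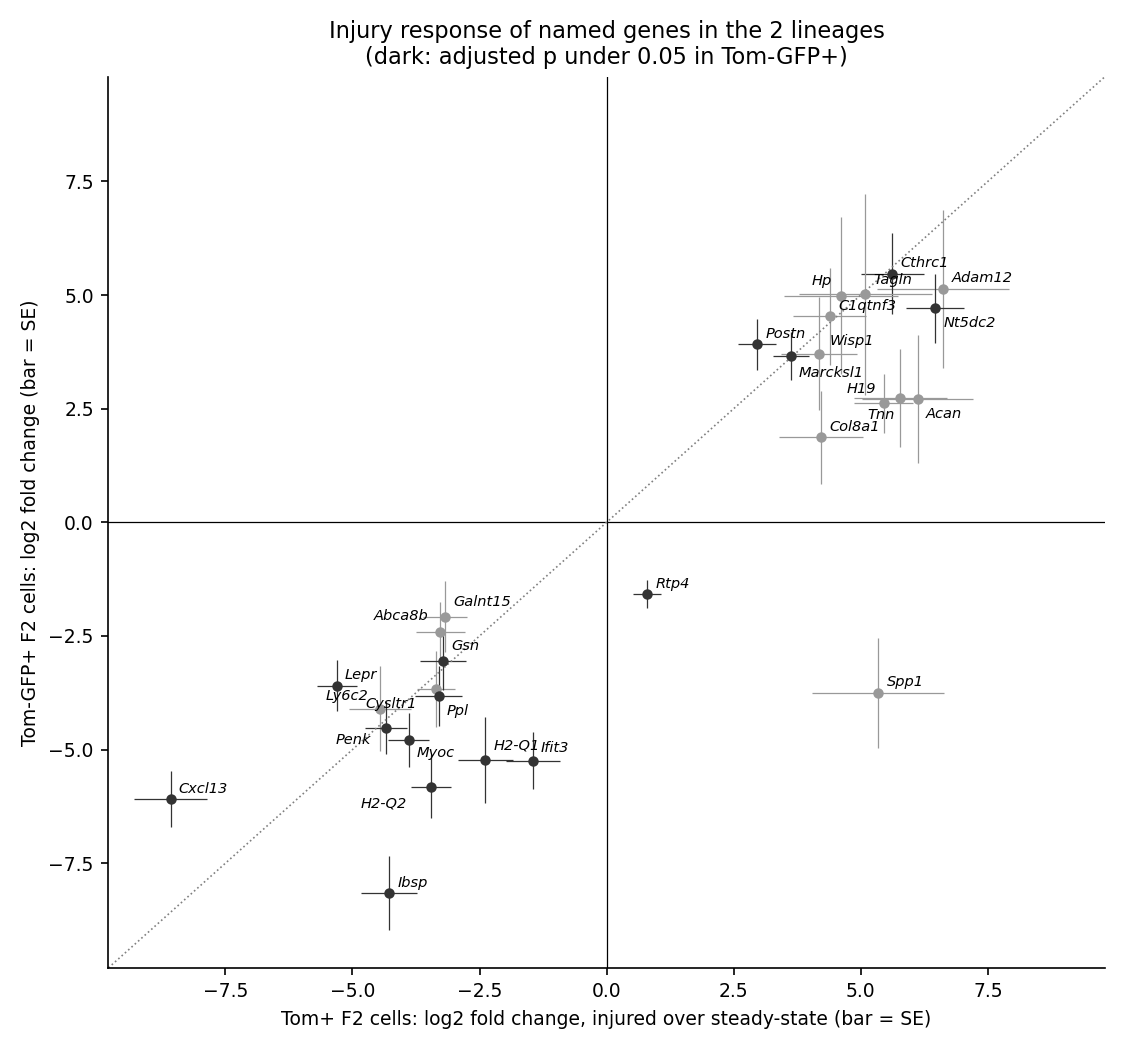
Log2 fold change after injury of the genes named for the size of their change in Tom+ F2 cells (x axis) against that in Tom-GFP+ F2 cells (y axis), with standard errors as bars, equality as a dotted line and genes that passed in Tom-GFP+ cells in dark. All genes shown but *Spp1* and *Rtp4* have the same sign in the 2 lineages, with fold changes as fitted; the reporter tdTom and *Lrrc15*, with no UMI in the Tom-GFP+ steady state, are not shown.

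The lineages themselves were then compared within F2 cells. The reporter tdTom was at 349 and 415 CPM in Tom+ and 4.60 CPM in Tom-GFP+ steady-state cells, and at 331, 499, 658 and 341 against 1.78 and 2.02 CPM after injury, so the sort held in every library. H2BeGFP was at 454 and 456 CPM, then 698 CPM, then 171, 291, 448 and 343 CPM and last 560.1 and 392 CPM. Its UMIs were in 90.1% of F2 cells and also in 91.8% of *Ptprc*+ cells, where tdTom was in 13.7% and *Dcn* in 56.2%. The share in *Ptprc*+ cells was thus not taken as a background level for H2BeGFP, and its source there was not tested. By edgeR tdTom was the only gene of 10232 that passed between the lineages after injury (0.00977%, log2 fold change 7.83, SE 0.50, adjusted p = 6.65e-05). The cells were sorted on this reporter, so its call is no finding in either state. After injury 310 genes were below an unadjusted p of 0.05. In the steady state 439 genes (4.29%) were below that level and 2 passed (0.0195%), tdTom (932 and 3 UMIs, ratio 84.4, 95% counting interval 28.8 to 409.9, adjusted p = 0.0107) and *Rtp4*, an interferon-induced chaperone of receptors, at 9.18 and 9.15 CPM in Tom+ and 62.9 CPM in Tom-GFP+ cells (log2 fold change -2.73, SE 0.34, adjusted p = 0.0308). *Ifit3* stood on the same side, at 7.14 and 7.74 against 73.6 CPM, without a call. The steady-state contrast rests on 1 Tom-GFP+ library, and *Rtp4* lost its call without either Tom+ steady-state library and in 9 other settings. The reporter tdTom lost its steady-state call without either Tom+ steady-state library and in all gated cells.

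Last, the Tom+ response of F2 cells was set against that of the pooled cells of the other panels in the same 6 libraries. These were 7 and 24 F1 cells with 7 and 5 F3 cells in the steady state and 145, 51, 17 and 20 F1 cells with 13, 13, 8 and 15 F3 cells after injury, so their mix differed between libraries. By edgeR 0 of 9424 genes had a response that differed between the classes, with 584 (6.2%) below an unadjusted p of 0.05, and DESeq2 called 3. The 2 genes nearest to the threshold, named after their values were seen, were *Plaur* and *Cyr61*. *Plaur* in F2 cells was at 4.08 and 10.6 CPM before and 68.5, 48.0, 31.5 and 19.5 CPM after injury, and in the other panels at 73.3 and 159 CPM and then 168, 153, 106 and 57.3 CPM (difference of the log2 fold changes 2.37, SE 0.35, adjusted p = 0.0865). It was higher after injury in F2 cells and on neither side in the others. *Cyr61*, a matricellular early response gene, was at 183 and 345 CPM and then 329, 475, 775 and 431 CPM in F2 cells, and at 448 and 463 CPM and then 162, 284, 292 and 229 CPM in the others (1.77, SE 0.27, adjusted p = 0.0865). Its values overlapped between states in F2 cells and were lower after injury in the others. The pooled panels held 14 and 30 cells in the steady state.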

How the data were processed

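Live Tom+ and Tom-GFP+ synovial cells were sorted from collagenase-digested knees and sequenced with the 5′ chemistry (version 2) of 10x Genomics. The authors deposited raw UMI counts per gene and barcode for barcodes already called as cells, without normalization. The submitters' processing notes name Cell Ranger and GRCm38.p6, and 5 of 9 matrix headers name software version 3.0.2. Further settings are not given in the sources used here.

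Here the rule for F2 cells was applied to the counts. No doublet caller was run. The 5% of cells with the most UMIs per library were left out as an alternative. UMIs of F2 cells were summed per library (at least 10 cells) and tested with edgeR 4.0.16 (glmQLFit, glmQLFTest, TMM, filterByExpr) over 4 groups that share 1 estimate of the spread, with Benjamini-Hochberg adjustment over all 10232 genes. The 20 genes of the rule were left out of the tests on F2 cells, and the 3 panel genes were tested in all gated cells. The class contrast used a library term. SE is the absolute log2 fold change over the square root of F. DESeq2 1.42.0 was an alternative. R 4.3.3, limma 3.58.1 and Python 3.11.15 were used. The fits were tested on simulated data with 100 genes changed by a log2 of 1 and 100 by a log2 of 2. The Tom+ response recovered 5% and 72% of these and the Tom-GFP+ response 0% and 20%. For the lineages it was 7% and 68% after injury and 0% and 11% at steady state, and for the class contrast 3% and 39%. A gene that did not pass is thus not shown to be unchanged. CPM is UMI counts per 1000000 F2 UMIs of a library, and intervals and floors (3 UMIs) cover counting error only. Gene positions are from the GENCODE annotation of GRCm38, in which 54409 of 54532 Ensembl genes were found. Named genes were, for Tom+ injury, the 12 with the largest rise and the 12 with the largest fall among called genes without overlap and with at least 50 CPM in the higher group, 5 each way in the other comparisons, and in each gene list the called members and up to 4 with the highest CPM. Predicted genes, ribosomal, mitochondrial and pseudogenes were counted but not named. The members, gene lists and tests were chosen with earlier results of these data known. 1 item of the BMP list is not reported here and was left out of that list's counts. H2-Q genes and other near-identical copies are uncertain.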

Additional observations from a re-analysis of the deposited data

Results flagged for a closer look

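Among the 73 groups of 4 Tom+ injured libraries examined, 7 had 1 library whose gap to the nearest other, divided by the whole range, was above Dixon's 95% critical value for 4 samples. Chance gives about 1 in 20. Tom+ injured replicate 1 stood apart in 4. Its *Spp1* level was 1021 CPM against 52.1 to 167 CPM in the other 3, its *H2-Q2* level 20.6 CPM against 4.72 to 6.50 CPM, its pseudogene share 1.12% of F2 UMIs against 0.545% to 0.556%, and the contractile genes tested summed to 1940.5 CPM. Replicate 4 held the only *Cxcl13* UMI, at 0.812 CPM, and any single UMI among 4 libraries would stand apart in this way, so the chance rate does not apply to it. Replicate 3 had the lowest *Cysltr1* level, 1.21 CPM, and the lowest ribosomal protein share, 13.4% of F2 UMIs. Replicate 1 shares the older gene-list format with the steady-state libraries, and the part of the format in these values was not tested.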

How the results depend on the processing

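For the Tom+ response, the Tom-GFP+ response, the lineages after injury, the lineages at steady state, the difference between lineages and the difference between classes, the counts of genes that passed were 945, 157, 1, 2, 0 and 0. Without a filter on low counts they were 1755, 819, 98, 87, 31 and 78. DESeq2 gave 583, 2, 9 and 3 for the Tom+ response, the lineages after injury, those at steady state and the classes. Members with all 3 panel genes gave 265 and 104 for the responses of Tom+ and Tom-GFP+ cells, and thinning to 5000 UMIs gave 558 for Tom+, 9 for the lineages at steady state and 6 for the classes. With gene-list format as a block, the Tom-GFP+ response was 378, the lineages 2 after injury and 19 at steady state, and their difference 1. Set against *Dpp4*+ cells, the class contrast called 29. Another 3 alternatives were added after the data were seen. Without skeletal-marker members the lineages at steady state differed in 8 genes. All gated cells gave 48 for the Tom-GFP+ response, 4 for the lineages after injury and 0 at steady state. Without pseudogenes, ribosomal protein and mitochondrial genes the Tom-GFP+ response was 73 and the steady-state lineages 4. Leaving out each library gave 156 to 1158, 2 to 518, 1 to 2, 0 to 19, 0 to 1 and 0 to 3, in the order of the first sentence. The labels do not say that replicate numbers mark shared mice, and 2 pairs cannot settle it: deviations of same-numbered libraries correlated at 0.0528 and 0.0761 between states of Tom+ cells and at 0.227 and 0.226 between injured lineages, over 2 pairs each. With the replicate block 722 genes passed for Tom+ and 2 for the lineages after injury. None of the 37 results named for the size of their change, nor of the 108 Tom+ and 27 Tom-GFP+ list members that passed, turned its sign in a setting that gave it a value. Calls were lost for 10 of 37 named results with all 3 panel genes required, 7 with thinning, 10 and 11 without Tom+ steady-state replicates 1 and 2, and 10 and 7 without Tom-GFP+ injured replicates 1 and 2. The causes were not tested. The Tom-GFP+ steady state rests on 1 library of 651879 F2 UMIs, which limits all contrasts that use it.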
